A study of Mus musculus with 6 samples.

Results

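The ATP-binding cassette (ABC) transporter genes are described here in neural crest cells of mouse branchial arches at E11.5 of gestation. The genes were taken by symbol, as every symbol of the count table made of Abc, a subfamily letter from a to g, a number and an optional letter. This gave 50 of the 21006 genes in the table, namely 16 of subfamily A, 10 of B, 10 of C, 4 of D, 1 of E, 3 of F and 6 of G. DKO (double knockout) embryos were Ehmt1f/f and Ehmt2f/f, and control embryos were Ehmt1+/+ and Ehmt2+/+. Both groups also carried the Rosa26 TdTomato/+ reporter and Wnt1-cre, a Cre recombinase transgene expressed from the Wnt1 promoter in neural crest and its precursors. TdTomato cells were sorted from papain-dissociated arches, and polyadenylated RNA was sequenced in 3 DKO and 3 control libraries. Replicates are labelled as biological, and whether each came from a single embryo or from pooled embryos is not stated there. The p-values therefore set the difference between the groups against the spread among libraries within a group, for these 6 libraries. Ehmt1 and Ehmt2 encode GLP and G9a, the paired enzymes that add mono- and dimethyl marks to lysine 9 of histone H3, and the comparison asks how transcripts differ in arch crest when both genes are floxed.

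ABC proteins use ATP, bound at paired nucleotide-binding domains, to drive a cycle of shape changes. In subfamilies A, B, C, D and G the domains are joined to membrane-spanning segments and move lipids, sterols, peptides, metals, drugs or conjugated anions across a membrane. Members of E and F have no membrane-spanning segment and act on ribosomes and translation. Abcc2, also called MRP2, exports glucuronide and glutathione conjugates such as conjugated bilirubin, and is best known from the apical membrane of hepatocytes, kidney tubule and gut. Abca16 belongs to a tandem group with Abca14 and Abca15 that is known mainly from testis.

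By edgeR, 2 of the 42 tested members passed the test, and both were higher in DKO. Abcc2 rose by 5.82 (log2 fold change, SE 0.32, adjusted p = 0.000208 by edgeR) and Abca16 by 3.94 (SE 0.56, adjusted p = 0.00993 by edgeR), each from nearly no reads in controls. The Abca16 call ended without control replicate 3, and without DKO replicate 3 there were 2 members called lower, Abce1 among them. The 40 other tested members were not called by edgeR, and they include every member with at least 10 CPM (counts scaled to library size) in both groups. DESeq2 also called Abca2, Abcb8 and Abcd4, all of them higher. It called more genes of every kind, with 624 higher and 482 lower over all 14555 tested genes. Each DESeq2 count here and below is to be read against that larger background. The members called by edgeR make 4.76% of those tested, and 3.01% of all 14555 tested genes were called, so the count of members, 2 genes, stays near the background. None was called lower by edgeR, DESeq2 or limma, and 1 member (Abce1) was negative at an unadjusted p below 0.05. Over all tested genes 20.9% were at that edgeR p, which is the background for each such count below. By direction, 2.19% of all tested genes were called higher and 0.818% lower, which is 319 and 119 genes. With libraries scaled by total count alone, that split was 416 higher and 80 lower. It was 597 higher and 509 lower without DKO replicate 3. Without any other single library there were 110 to 187 higher and 21 to 59 lower.

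The sequence in front of 3 members is shown first, namely the called genes and Abce1, with their number of CpG dinucleotides, the bases that DNA methylation acts on. Each is the 250 bases before the transcription start, read 5′ to 3′ on the strand of the gene, from RefSeq on GRCm38.p6, with every CpG in capitals. Abcc2 lies on chr19:43782308-43838332 on the plus strand, and its window is chr19:43782058-43782307. Abca16 lies on chr7:120409647-120544892 on the plus strand, and its window is chr7:120409397-120409646. Abce1, shown as an abundant member that was not called, lies on chr8:79683442-79711740 on the minus strand, and its window is chr8:79711741-79711990.
Abcc2: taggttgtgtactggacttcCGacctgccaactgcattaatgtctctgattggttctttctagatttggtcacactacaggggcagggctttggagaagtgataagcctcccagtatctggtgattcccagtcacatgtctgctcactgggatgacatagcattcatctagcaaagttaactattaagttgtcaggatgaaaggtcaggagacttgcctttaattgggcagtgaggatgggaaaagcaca
Abca16: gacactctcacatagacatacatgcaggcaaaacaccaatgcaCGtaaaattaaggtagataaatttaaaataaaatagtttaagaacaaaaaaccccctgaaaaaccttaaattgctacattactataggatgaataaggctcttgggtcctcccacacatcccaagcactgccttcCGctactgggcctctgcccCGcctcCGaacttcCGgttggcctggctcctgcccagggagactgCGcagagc
Abce1: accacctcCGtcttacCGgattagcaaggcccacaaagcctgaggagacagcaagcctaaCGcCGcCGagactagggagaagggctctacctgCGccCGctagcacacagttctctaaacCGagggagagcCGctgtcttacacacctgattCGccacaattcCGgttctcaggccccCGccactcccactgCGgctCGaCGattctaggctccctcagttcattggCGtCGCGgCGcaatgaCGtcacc
The Abcc2 window held 1 CpG, that of Abca16 held 6 and that of Abce1 held 20. Over all 32841 windows of the same length in the RefSeq table the median was 6, with quartiles of 2 and 16, and 18.8% of windows held at most 1. Abcc2 thus belongs to the windows with fewest CpG, and Abca16 sits at the median of all genes. A low CpG number was not particular to called members. Among members not called, the window of Abcb1a held 0 and that of Abcc12 held 2. That of Abcb6, at 32.1 CPM in controls, held 9, which is above the median of 6 for all windows.

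The libraries held 23414466 to 44538260 counts, so 1 count is a small part of 1 CPM. The floxed genes were lower in every DKO library. Ehmt2 stood at 128 ± 11.3 CPM against 355 ± 7.13 CPM in controls (SD, n = 3 each), and fell by 1.47 as a log2 fold change (edgeR adjusted p = 0.000208). Ehmt1 stood at 148 ± 18.2 CPM against 259 ± 8.92 CPM in controls, and fell by 0.81 (edgeR adjusted p = 0.00476). DKO replicate 3 stood nearest to the controls, at -12.3 on the first principal component (46.6% of the variance) where DKO replicates 1 and 2 lay at -31.8 and -37.0 and controls at 19.1 to 31.2. All 10 listed markers of arch crest mesenchyme were tested, and 0 were called by edgeR or limma and 1 by DESeq2. At an unadjusted p below 0.05 there were 3, against 20.9% of all tested genes. Of these 10 markers 2 had positive log2 fold changes, with a median of -0.17, and the 3 at that p (Prrx1, Dlx5 and Tfap2a) were lower in DKO. Their summed level over all 10 was 2018 to 2535 CPM in DKO and 2346 to 2766 CPM in controls. The 9 endothelial markers all had positive log2 fold changes, and their sum was 33.6 to 44.3 CPM in DKO and 19.5 to 28.4 CPM in controls, with Tie1 called by edgeR (log2 fold change 3.04, adjusted p = 0.000503) and Pecam1 and Tie1 by DESeq2. Among neuron markers edgeR called Pou4f1 (log2 fold change -0.45, adjusted p = 0.0306), with 1 of 10 tested markers positive. Tyr was called among melanocyte markers (1.70, edgeR adjusted p = 0.0392), with 2 of 4 positive. Actg2 was called among smooth muscle and pericyte markers (2.21, edgeR adjusted p = 0.0448), with 6 of 7 positive. DESeq2 also called Actg2, and limma did not. Erythroid markers, 0 called by edgeR, summed to 19.6, 58.1 and 331 CPM in DKO and 108 to 188 CPM in controls. The part of RNA from any of these cells in the values below was not tested.

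Most ABC transcript came from the members that do not transport. On levels per kilobase of exon (RPKM, CPM divided by exon length), subfamily F made 49.0% of the summed level in DKO and 49.9% in controls, and subfamily E, which is Abce1 alone, made 12.6% and 15.1%. Abcf2 was highest at 68.1 ± 3.57 RPKM (DKO) and 71.1 ± 5.49 (control, SD of 3 libraries each). Abcf1 followed at 47.1 ± 1.12 and 50.4 ± 3.53 RPKM. Then came Abce1 at 34.0 ± 4.003 and 41.5 ± 2.94 RPKM, and Abcf3 at 16.7 ± 0.402 and 15.9 ± 0.427 RPKM. Below these, the means of Abcd3, Abcb8, Abcc5 and Abcb10 lay between 8.76 and 11.1 RPKM in both groups. Abcc2 reached 0.907 ± 0.214 RPKM in DKO from 0.0150 ± 0.00402, and so stayed far below the abundant members after its rise.

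**Figure D1:**
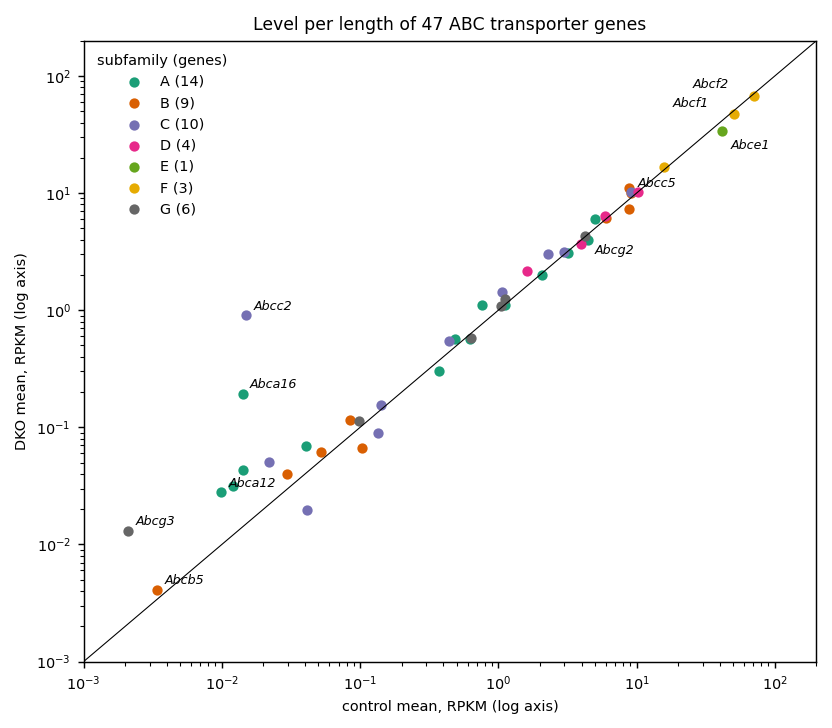
Mean level of each ABC transporter gene in control (x axis) and DKO libraries (y axis), in RPKM on log axes, coloured by subfamily, with a line of equal level; the 3 genes with no count in controls are left out. The abundant genes lie near the line, and Abcc2 (0.0150 to 0.907 RPKM) and Abca16 stand above it.

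Subfamily C holds the multidrug resistance proteins, which export organic anions, and the sulfonylurea receptors of KATP channels. Abcc2 counted 282, 422 and 268 reads in the DKO libraries and 7, 2 and 4 in the control libraries. On the CPM scale these were 7.60, 9.64 and 5.99 in DKO and 0.157, 0.0897 and 0.137 in controls. Every DKO library was far above every control library, and the lowest DKO value belonged to replicate 3, which lies nearest to the controls as a whole. The pooled ratio of DKO to control was 57.3 (95% exact interval 33.3 to 108.0, which covers counting error only). Abcc2 ranked the 8th of all tested genes by log2 fold change and the 3rd by p-value. In bulk libraries, a larger share of cells that express Abcc2 and more Abcc2 RNA in each cell cannot be told apart.

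Abcc2 is normally a gene of liver, kidney and gut, so the 12 listed markers of those epithelia, of which 5 were tested, were read beside it. Their summed level was 15.3 to 25.7 CPM in DKO and 20.8 to 30.5 CPM in controls, and these ranges overlap. Cdh16, Cdx2 and Fabp1 had no count in any library, Hnf4a was at 0.0164 CPM in DKO and 0 in controls, and Alb was at 0.173 and 0.0825 CPM. Afp was the 1 listed marker called by edgeR and limma, at 0.362 ± 0.0603 CPM in DKO and 0.0149 ± 0.0258 in controls (edgeR log2 fold change 3.94, adjusted p = 0.0262). DESeq2 called Afp and Ttr, and Ttr was at 7.71 ± 1.55 CPM in DKO and 15.4 ± 4.11 CPM in controls, with no overlap (edgeR log2 fold change -1.001, adjusted p = 0.0627). Lrp2 was at 8.44 ± 4.29 and 9.61 ± 0.899 CPM and Cubn at 2.09 ± 0.428 and 1.51 ± 0.659 CPM, and both overlap. Abcc2 itself was at 7.74 ± 1.83 CPM in DKO, and the part of these cells in its result was not tested. The Afp call ended without DKO replicate 1 or any single control, with adjusted p from 0.0634 to 0.100.

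The other members of subfamily C were not called. Abcc10, or MRP7, was at 19.2, 23.0 and 20.1 CPM in DKO and 18.7, 14.4 and 13.9 CPM in controls, with a log2 fold change of 0.40 (SE 0.14, adjusted p = 0.165 by edgeR). Its groups do not overlap, but control replicate 1 comes close to the lowest DKO library. Abcc12, or MRP9, was at 0.323, 0.388 and 0.291 CPM in DKO and 0.112, 0.224 and 0.103 CPM in controls (log2 fold change 1.26, SE 0.43, adjusted p = 0.157 by edgeR), likewise without overlap. Abcc5, which exports cyclic nucleotides and is the most abundant member of the subfamily, was at 109 ± 10.1 and 97.0 ± 9.98 CPM, and Abcc1, the broad-range exporter MRP1, had a log2 fold change of 0.08. The whole subfamily summed to 196, 214 and 193 CPM in DKO and 176, 173 and 163 CPM in controls, with no overlap. Of the difference of 30.3 CPM, Abcc5 gave 11.9, Abcc2 gave 7.62 and Abcc10 gave 5.08 CPM. Of the 9 tested members 8 had positive log2 fold changes, with a median of 0.32. The 2 KATP pore genes were tested and had a median log2 fold change of 0.12, with 0 called by edgeR, DESeq2 or limma and 0 at an unadjusted p below 0.05.

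Subfamily A moves lipids. Abca16 counted 54, 77 and 42 reads in DKO and 1, 4 and 3 in control libraries. The levels were 1.46, 1.76 and 0.939 CPM in DKO and 0.0224, 0.179 and 0.103 CPM in controls. All DKO libraries were above all controls, with a pooled ratio of 16.6 (95% exact interval 8.22 to 39.0). The call ended without control replicate 3, with a log2 fold change of 4.07 and an adjusted p of 0.0565. Its neighbours on chromosome 7 carried almost no reads, with 5 counts for Abca14 over the 3 DKO libraries and 0 over the controls, and 1 count for Abca15 in DKO and 0 in controls. Abca15 ends 1.95 kb before Abca16 starts, and Abca14 ends 3.13 kb before Abca15. With so few counts no direction was detectable for Abca14 or Abca15. The 10 listed germ cell and testis markers summed to 1.68 to 2.54 CPM in DKO and 2.69 to 3.85 CPM in controls. Of them 2 were tested, with 0 called by edgeR, DESeq2 or limma and 1 at an unadjusted p below 0.05, and Tex101 and Acrv1 had no count.

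Among the other lipid transporters of subfamily A, Abca2, Abca9, Abca12 and Abca13 had no overlap between the groups and were not called by edgeR or limma, while DESeq2 called Abca2 (adjusted p = 0.0370). Abca2, an endolysosomal lipid transporter, was at 48.4, 51.8 and 49.7 CPM in DKO and 43.2, 40.2 and 41.6 CPM in controls (log2 fold change 0.26, SE 0.07, adjusted p = 0.0999 by edgeR). Abca13 was at 1.13, 1.42 and 1.59 CPM in DKO and 0.760, 0.808 and 0.855 CPM in controls (0.78, SE 0.25, adjusted p = 0.144 by edgeR). For both, the controls lay close together and below each DKO library. Abca9 was at 7.87, 11.8 and 7.31 CPM in DKO and 7.07, 6.51 and 4.85 CPM in controls (0.55, SE 0.23, adjusted p = 0.221 by edgeR). Abca12, which loads lipids into lamellar granules of the skin, had a log2 fold change of 1.28 (SE 0.55, adjusted p = 0.231 by edgeR) at 0.320 to 0.539 CPM in DKO and 0.0449 to 0.291 CPM in controls. Abca3, the surfactant lipid transporter, had a log2 fold change of -0.16 and Abca7 of -0.06, and neither was called. The summed level of the subfamily was 167 ± 10.7 CPM in DKO and 159 ± 14.5 CPM in controls (SD of 3 libraries each), and these overlap.

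Subfamily B holds P-glycoproteins, bile transporters and mitochondrial carriers, and 0 of its 8 tested members were called by edgeR or limma, while Abcb8 was called by DESeq2 and was the 1 member at an unadjusted p below 0.05. Abcb8, a carrier of the mitochondrial inner membrane, was at 51.8, 52.0 and 53.4 CPM in DKO and 39.8, 37.4 and 47.3 CPM in controls. The groups do not overlap, with a log2 fold change of 0.34 (SE 0.10, adjusted p = 0.113 by edgeR). Abcb10, which acts in mitochondrial haem synthesis, had a log2 fold change of 0.15 and was not called. Of 18 listed genes of mitochondrial haem and iron-sulfur pathways all were tested, with 0 called by edgeR, DESeq2 or limma, 1 at an unadjusted p below 0.05 and a median log2 fold change of 0.10.

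Subfamily D works mainly in peroxisomes, and 0 of its 4 members were called by edgeR or limma. Abcd4 was called by DESeq2 and was the 1 member at an unadjusted p below 0.05. Abcd4, which instead moves cobalamin out of lysosomes, was at 16.7, 19.0 and 16.2 CPM in DKO and 14.2, 12.5 and 11.96 CPM in controls, without overlap (log2 fold change 0.42, SE 0.12, adjusted p = 0.107 by edgeR). The peroxisomal fatty acid transporters Abcd2 and Abcd3 had log2 fold changes of -0.13 and -0.00146, and the groups overlapped for both. Of 22 listed peroxisome genes 1 was called by edgeR and limma, Pex13, a peroxisomal import factor, which fell by 0.40 (log2 fold change, SE 0.08, adjusted p = 0.0338 by edgeR). That call ended without any single library other than DKO replicate 3, with adjusted p from 0.0779 to 0.169. DESeq2 called Pex13 and Pex16, of which Pex16 was at 12.6 ± 1.21 CPM in DKO and 9.03 ± 0.894 CPM in controls. The median log2 fold change over that list was 0.04, with 6 genes at an unadjusted p below 0.05, against 20.9% of all tested genes.

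Abce1, which splits ribosomes after termination, was at 193, 188 and 232 CPM in DKO and 229, 260.0 and 258 CPM in controls. DKO replicate 3 lies just above the lowest control, so the groups overlap. The log2 fold change was -0.29 (SE 0.10, adjusted p = 0.160 by edgeR). Without DKO replicate 3 Abce1 was called lower, at -0.39 (edgeR adjusted p = 0.0372). The F members, which act on ribosomes, had log2 fold changes of -0.10 for Abcf1, -0.06 for Abcf2 and 0.07 for Abcf3, and 0 of these 3 passed in edgeR, DESeq2 or limma or at an unadjusted p below 0.05. Of 15 tested genes of ribosome recycling and translation control 0 were called by edgeR or limma and 2 by DESeq2, with a median log2 fold change of -0.16. At an unadjusted p below 0.05 there were 4, against 20.9% of all tested genes.

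Subfamily G moves sterols and drugs, and 0 of its 5 tested members were called by edgeR, DESeq2 or limma or passed an unadjusted p below 0.05. Abcg2, the drug and urate exporter BCRP, was at 35.0 ± 0.267 CPM in DKO and 34.7 ± 2.16 CPM in controls (SD, n = 3 each). Abcg1 and Abcg4, which send sterol to lipoproteins, had log2 fold changes of 0.17 and 0.06. Of 20 genes of sterol sensing and efflux 0 were called by edgeR or limma and 2 by DESeq2, with a median log2 fold change of -0.09. At an unadjusted p below 0.05 there were 5, against 20.9% of all tested genes.

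**Figure D2:**
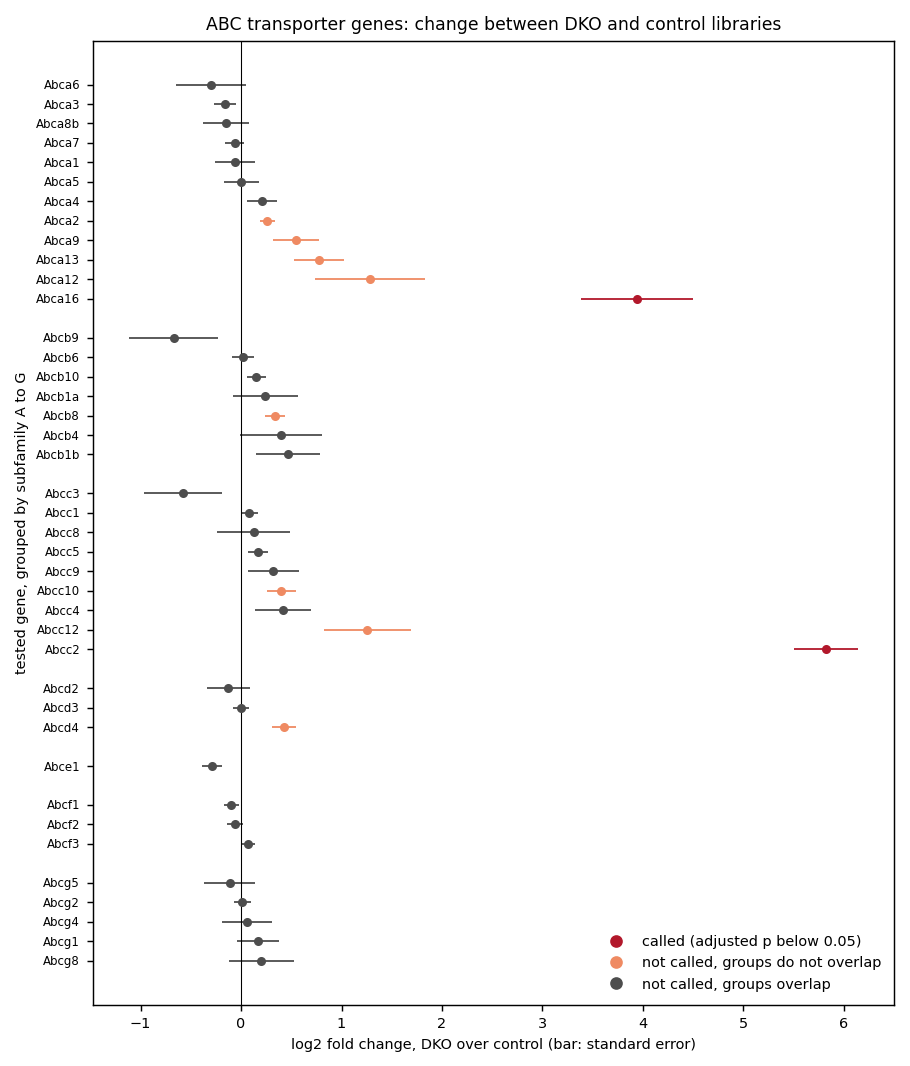
Log2 fold change of DKO over control (x axis, bar: standard error) for 40 of the 42 tested ABC transporter genes, grouped by subfamily A to G (y axis) and coloured by whether the gene was called and whether the groups overlap. Abcc2 at 5.82 and Abca16 at 3.94 are the called genes, and the others shown lie between -0.67 and 1.28.

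Over all members, 28 of the 42 tested had positive log2 fold changes and 14 negative, with a median of 0.11, against 48.8% positive and a median of -0.01 over all tested genes. For 10 tested members, or 23.8%, the groups did not overlap, and all 10 were higher in DKO. Over all tested genes 27.2% did not overlap, 14.5% with DKO above and 12.7% with DKO below. The share of members without overlap, in either direction, is thus near the background. By direction it was 23.8% of members against 14.5% of all genes with DKO above, and 0 members against 12.7% with DKO below. Among these 10 are Abcc2, Abca16, Abca12 and Abcc12, at control means of 0.101 to 0.146 CPM, which passed the filter only through their DKO libraries. The counts by direction in this paragraph rest partly on them and are no test of direction. At an unadjusted p below 0.05 there were 11 members, or 26.2%, of which 10 had positive log2 fold changes and Abce1 was negative, against 20.9% of all tested genes. The 21 members at 10 CPM or more in both groups had log2 fold changes from -0.29 to 0.42. The summed level of all members was 1373 ± 20.6 CPM in DKO and 1387 ± 46.5 CPM in controls (SD, n = 3 each), and the groups overlap.

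**Figure D3:**
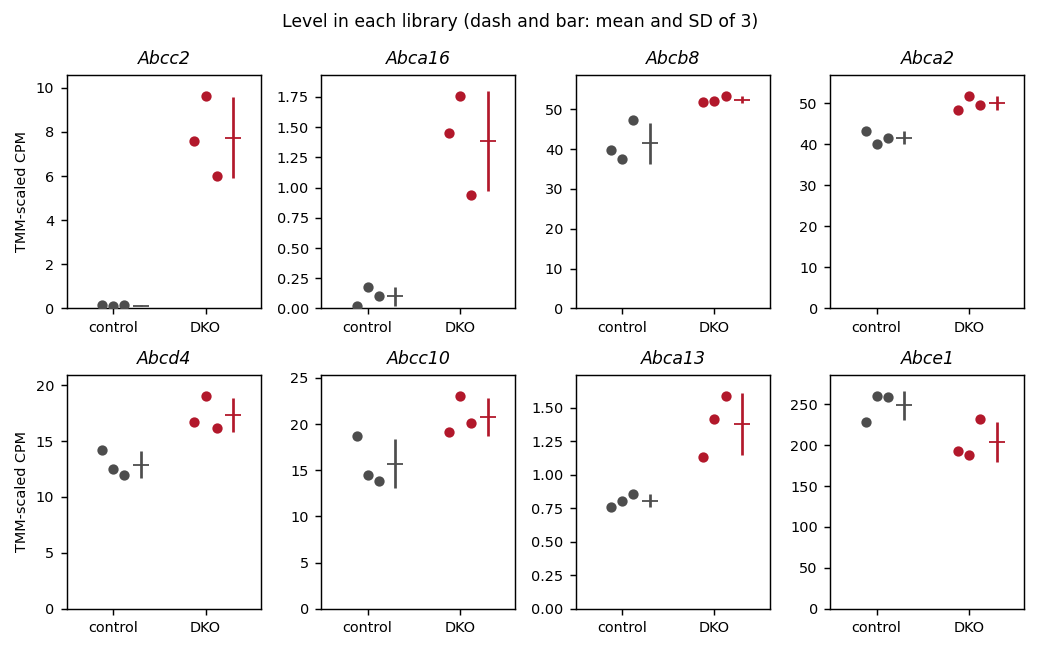
Level of 8 ABC transporter genes in each library, in TMM-scaled CPM on axes that start at 0, with control in grey and DKO in red; dash and bar are the mean and SD of 3 libraries. Abcc2 and Abca16 stand near 0 in controls, Abcb8, Abca2, Abcd4, Abcc10 and Abca13 are shifted upward without overlap, and DKO replicate 3 of Abce1 (232 CPM) lies among the controls.

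The 8 members that were not tested had 1 to 35 counts in DKO and 0 to 21 in control libraries. Abcb11, the bile salt export pump of hepatocytes, had 4, 4 and 2 counts in the DKO libraries and 0 in controls. Abca8a had 35 and 10 counts, a ratio of 2.68 (95% exact interval 1.30 to 6.07). Abca17 had 22 and 7 counts (2.41, 0.994 to 6.67). Abcc6, whose loss leads to ectopic mineralisation, had 14 and 21 counts (0.511, 0.240 to 1.05). Abcg3 had 6 and 1 counts (4.60, 0.558 to 211), and Abcb5 had 2 and 1. For Abca8a the lowest DKO library (0.162 CPM) barely exceeded the highest control (0.157 CPM). These intervals cover counting error only and not the spread between replicates, so they show no direction for the groups.

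The genes beside the called members were read to see whether the change covered a wider stretch, with a window of 500 kb that was chosen after the values were seen. Around Abcc2, 16 of 19 genes were tested, with 0 called by edgeR, DESeq2 or limma, 2 at an unadjusted p below 0.05, and log2 fold changes from -0.23 to 1.22. The nearest, Dnmbp and Cutc at 8.48 and 13.7 kb, had 0.10 and 0.18. Around Abca16, 12 of 18 genes were tested, with 0 called by those 3 tools, 2 at an unadjusted p below 0.05, and log2 fold changes from -0.16 to 1.65. The highest was Anks4b (SE 0.41, adjusted p = 0.0732 by edgeR). In both places the called transporter exceeded each tested neighbour. Abcc2 and Abca16 were picked by their change and ranked 8th and 21st of all tested genes by log2 fold change. That all but fixed this outcome, so it cannot show whether a wider stretch changed.

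**Figure D4:**
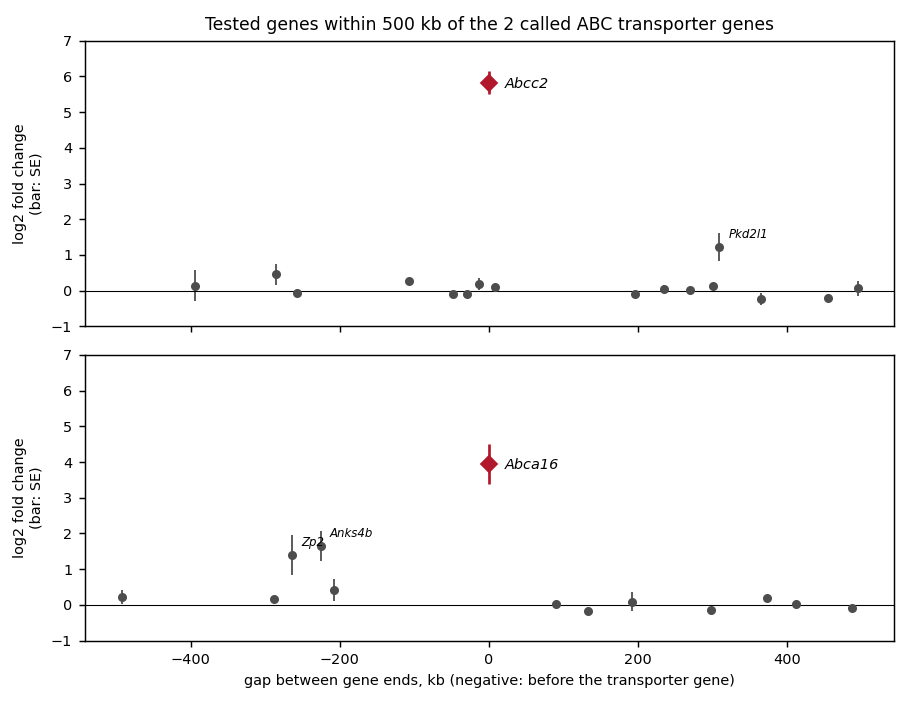
Log2 fold change (y axis, bar: standard error) of tested genes by their distance in kb from Abcc2 (upper) and Abca16 (lower), negative for genes before the transporter. The neighbours lie between -0.23 and 1.65, under Abcc2 at 5.82 and Abca16 at 3.94.

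The tandem members Abca5, Abca6, Abca9 and Abca8b on chromosome 11 had log2 fold changes of 0.00, -0.30, 0.55 and -0.15, and none was called by edgeR. Where exons overlap another gene the counts may be mixed, which concerns 12 members. The largest share is 55.2% of the exon length of Abcb6 on the strand of Gm29253, while Abcc2 and Abca16 have no such overlap.

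A RefSeq window was found for 38 of the 50 members, 45 windows in all. Members at 10 CPM or more in controls had a median of 20 CpG in 20 windows of 15 genes, and members untested or under 1 CPM in controls had a median of 6 in 18 windows of 17 genes. Abcc2 with 1 and Abca16 with 6 belong to the second set. This relation between CpG number and level is a description over genes, which are not independent. Of the 45 windows, 5 held the E-box CACGTG against 6.02% of all windows, 10 held GCGGGA, the core of E2F sites, against 16.9%, and 4 held TGACNNNGC, the core of the antioxidant response element, against 10.2%. The TATA box TATAAA was in 5 against 12.4%, and both strands were searched for each. Abcc2 had TGACNNNGC at 98 to 90 bases before the start. Abca16 and Abce1 held none of the 4. A match is not a shown binding site.

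**Figure D5:**
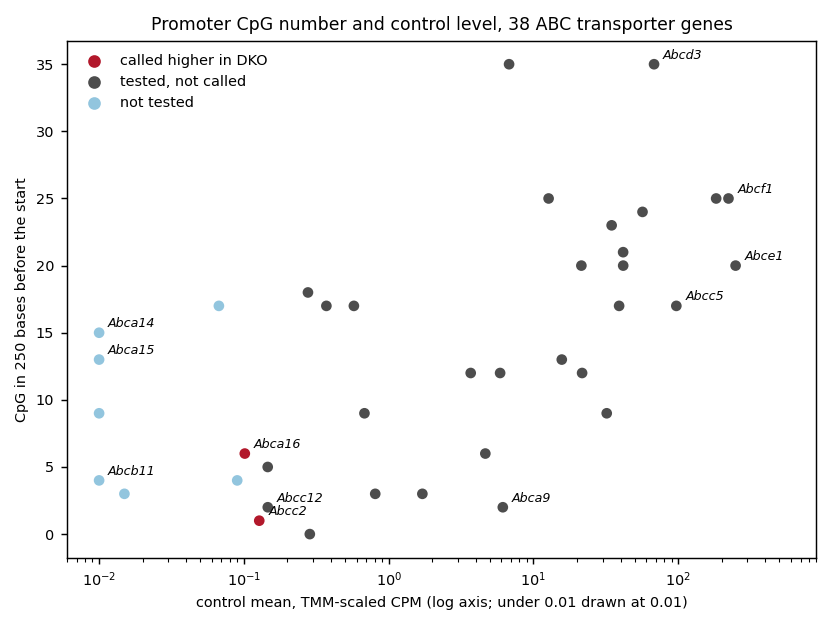
Number of CpG in the 250 bases before the start (y axis) against control mean level in TMM-scaled CPM on a log axis (x axis, values under 0.01 drawn at 0.01) for 38 ABC transporter genes. For a gene with more than 1 window the one with most CpG is drawn, as for Abcg2 at 23, whose other windows held 3 and 10. The called Abcc2 (1 CpG) and Abca16 (6 CpG) lie at low control level. The windows of Abca14 and Abca15 reach past the start of another transcript of the gene.

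Genes that act with Abcc2 were followed in lists of pathway genes. Glutathione synthesis and conjugation makes substrates for it, and 2 of 20 tested genes were called by edgeR, both higher, against 2.19% of all tested genes. DESeq2 called 4 (Gstt1, Gstt2, Gstt3 and Gstm2) and limma called 1 (Gstt2), with a median of 0.27 on the log2 scale. At an unadjusted p below 0.05 there were 9, against 20.9% of all tested genes. Gstt1, a glutathione transferase, was at 10.6 ± 5.14 CPM in DKO and 2.39 ± 0.692 in controls (SD, n = 3 each), and rose by 2.13 (SE 0.41, adjusted p = 0.0401 by edgeR). Gstt2 was at 4.82 ± 0.520 and 2.43 ± 0.431 CPM, and rose by 0.98 (SE 0.21, adjusted p = 0.0453 by edgeR). Gstt1 lost the call without each library other than DKO replicate 3 (adjusted p 0.0671 to 0.177), and so did Gstt2 (0.0934 to 0.172). Of 14 uptake carriers of organic anions 7 were tested, and their log2 fold changes had a median of 0.46, with 6 positive. Slco1a5 at 2.33 and Slco2b1 at 1.58 (adjusted p = 0.0564 and 0.0881 by edgeR) were the 2 at an unadjusted p below 0.05. The 4 tested regulators of xenobiotic and redox response had a median of 0.02 and 0 at that p, and the 5 tested apical scaffold proteins had -0.06 and 1. The ABC proteins with other symbols, Tap1, Tap2 and Cftr, had a median of 0.02 and 1 at that p. In these last 4 lists 0 genes were called by edgeR, DESeq2 or limma.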

How the data were processed

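Counts per gene symbol for 3 DKO and 3 control libraries were deposited by the authors as unnormalized whole numbers. The reads were handled with STAR 2.7.10a, Trim Galore and Picard on mm10, per the submitters' processing notes. How reads were assigned to genes, on which strand and with which annotation, is not given in the sources used here. Columns named WT were taken as the control samples. Analysis used edgeR 4.0.16 in R 4.3.3, with limma 3.58.1 and DESeq2 1.42.0 as alternatives. Genes were kept by filterByExpr (minimum count 10, minimum total 15), which left 14555 of 21006 symbols (3202 of the symbols had no count in any library). Libraries were scaled by TMM, and the 2-sided robust quasi-likelihood test had group as its only term. Benjamini-Hochberg adjustment ran over the whole tested table, and called means an adjusted p below 0.05. The standard error is the log2 fold change over the root of F. CPM is TMM-scaled, and RPKM divides it by GENCODE exon length. Tandem members were taken within 200 kb, and other genes beside a called member within 500 kb.

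The members and lists were chosen with earlier results of these data known. The rule names Ehmt1 and Ehmt2, called members, members whose groups do not overlap, the 3 highest per subfamily by RPKM, tandem neighbours of called members, and called genes of the lists. Other members and list genes named here were chosen after their values were seen. Single values of 2 members are not reported here, although they enter every count and sum. The test was checked on simulated data. Replicates of a group differed beyond sampling noise (chi-square per degree of freedom 12.1 to 51.0), so all 6 were counted.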

Additional observations from a re-analysis of the deposited data

How the results depend on the processing

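Among all tested genes, 319 were called higher and 119 lower. DESeq2 gave 624 and 482, and a test against a 1.5-fold change gave 104 and 18. Leaving out each library gave 110 to 597 higher and 21 to 509 lower. The share of calls that were higher was 72.8%, 83.9% with library size only, 56.4% with DESeq2, 54.0% without DKO replicate 3 and 85.2% against 1.5-fold. Among the members, 2 were called higher and 0 lower. A filter of 1 CPM in 3 libraries left 1, since Abca16 was then not tested, and DESeq2 gave 5, adding Abca2, Abcb8 and Abcd4 (adjusted p of 0.0370, 0.0424 and 0.0404). Leaving out each library gave 1 to 2 higher and 0 to 2 lower. Abcc2 was called under all 14 alternatives, at 5.63 to 6.03, and Abca16 lay at 3.31 to 4.57 with an adjusted p of 1.30e-05 to 0.0565 over the 13 that tested it.

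Deviations from the group mean had correlations of 0.05, -0.03 and 0.36 between DKO and control libraries of the same number. DKO replicates 1 and 3 correlated best with the control of their own number, and DKO replicate 2 with control replicate 1 (0.447). With 3 libraries per group these values cannot decide whether the numbers pair the samples. The fit with a replicate block gave 423 higher and 196 lower, with 2 members higher and 0 lower.

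Log2 fold changes were recomputed only for the members that the naming rule takes. Among these, direction reversed for 7 members not called by edgeR, and the cause was not tested. With library size only these were Abca7 (0.0165), Abcd3 (0.0761) and Abcf2 (0.0175), and with the 1 CPM filter Abcd3 (0.0141). Without DKO replicate 2 they were Abcd2 (0.00605) and Abcg4 (-0.146), and without DKO replicate 3 Abcd3 (0.0525). Without control replicate 1 they were Abcd3 (0.0501) and Abcg2 (-0.0267), without control replicate 2 Abcg1 (-0.0167), and without control replicate 3 Abcd2 (0.0763) and Abcg4 (-0.112). With each library left out in turn, Abcd2 ranged from -0.289 to 0.0763, Abcd3 from -0.0519 to 0.0525, Abcg1 from -0.0167 to 0.364, Abcg2 from -0.0267 to 0.0509 and Abcg4 from -0.146 to 0.311. Depth limits the 16 members under 1 CPM in both groups.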
